A study of Mus musculus with 6 samples.

Results

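The genes described here encode the secreted and membrane-bound zinc proteases that cut extracellular matrix and cell-surface proteins, and the inhibitors that block them. They are the matrix metalloproteinases (Mmp), the tissue inhibitors of metalloproteinases (Timp), the ADAM proteases (Adam), which carry a disintegrin domain, and the ADAMTS proteases (Adamts), which carry thrombospondin repeats. Members were taken by gene symbol from the deposited table, leaving out Mmp8 and Mmp9, proteases of neutrophil granules. This gave 78 of 56496 genes, of which 21 were Mmp, 4 Timp, 34 Adam and 19 Adamts genes. RNA-seq was measured in 6 libraries of bone marrow from female BALB/c mice, a common inbred strain, after surgical removal of a 4T1 tumour, 4T1 being a mouse mammary carcinoma line. Onway 1, Onway 2 and Onway 3 came from mice dosed with Onway by gavage over 2 weeks, and Control 4, Control 5 and Control 6 from mice that were not dosed. What Onway contains is not stated in the labels. The labels call the marrow WT, put day 0 on Control and day 14 on Onway, and give no age, so dosing and labelled day cannot be told apart. They do not say that each library is 1 mouse, so p-values reflect library-to-library spread, which may be technical. They also describe a culture medium with dexamethasone, isobutylmethylxanthine and insulin, a mix used to turn cells into adipocytes, without saying whether these cells were cultured.

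Matrix metalloproteinases are made as inactive precursors held by a cysteine in the propeptide, and are switched on when that propeptide is cut away. Collagenases open the collagen triple helix, gelatinases digest the denatured chains, and membrane-type enzymes work at the cell surface and activate other members. Timp proteins bind the active site of the enzymes. ADAM proteases mostly release the outer parts of membrane proteins, a step called shedding, and several ADAMTS proteases cut proteoglycans or trim procollagens. In bone and marrow the matrix-cutting enzymes come largely from osteoblasts, chondrocytes, osteoclasts and stroma, whereas neutrophils and monocytes carry a different set.

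Values are TPM, transcript abundance scaled within each library to the same total and adjusted for length, so levels of different genes can be set side by side. Read depth is not kept in TPM and is unknown here. Haemoglobin genes took 9.38% to 33.9% of the TPM of a library, with the highest shares in Control 4 (26.6%) and Onway 3 (33.9%). Marrow identity was checked on marker lists. Neutrophil genes summed to 101559 to 218951 TPM and erythroid genes to 94852 to 340893 TPM over the 6 libraries. Skeletal muscle genes summed to 752 to 4837 TPM in Control against 16.7 to 25.3 TPM in Onway. Osteoblast and osteocyte genes summed to 297 to 1481 TPM in Control against 9.03 to 25.1 TPM in Onway. The check thus does not show that the libraries hold marrow alone. Genes whose mean over the 6 libraries reached 1 TPM were tested with limma on log2(TPM + 1), with Benjamini-Hochberg adjustment over all 14192 tested genes and a threshold of 0.05.

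Of the 78 members, 23 reached that minimum and were tested, and 17 members were listed at 0 in every library. Mmp13, Mmp2, Mmp14, Timp1, Timp3 and Adamts2 fell in Onway. No member rose. The 6 lower calls stand beside 2.99% of all tested genes called lower, and the 0 higher calls beside 0.233% called higher. At an unadjusted p under 0.05, 10 tested members were lower and 1, Adam19, was higher, where 8.42% of all tested genes were lower and 4.95% higher. The groups did not overlap for 10 tested members that were lower in Onway and for 2 that were higher, where 11.5% and 6.95% of all tested genes did so. Of the 38 members above 0 in a library but under the minimum, 9 were lower and 2 higher without overlap, where 10.4% and 3.04% of the 14535 such genes did so. The median log2 fold change of the tested members was 0.01, and that of all tested genes was 0.03. Of the 23 tested members, 6 had an Onway mean under 1 TPM and passed the filter through their Control level, so their count carries no weight of its own. These were Mmp2, Mmp23, Timp1, Adamts1, Adamts2 and Adamts5. Markers of bone, cartilage, stroma, vessels, muscle and megakaryocytes fell in the same libraries, with their values given after the members, and their part in the lower members was not tested. In bulk libraries, fewer cells of a type, less of a tissue in the sample and less RNA per cell cannot be told apart. A further value held in the authors' Control means, also given after the members, lay with the Onway libraries for Mmp13, Mmp2, Timp1 and Adamts2.

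**Figure D1:**
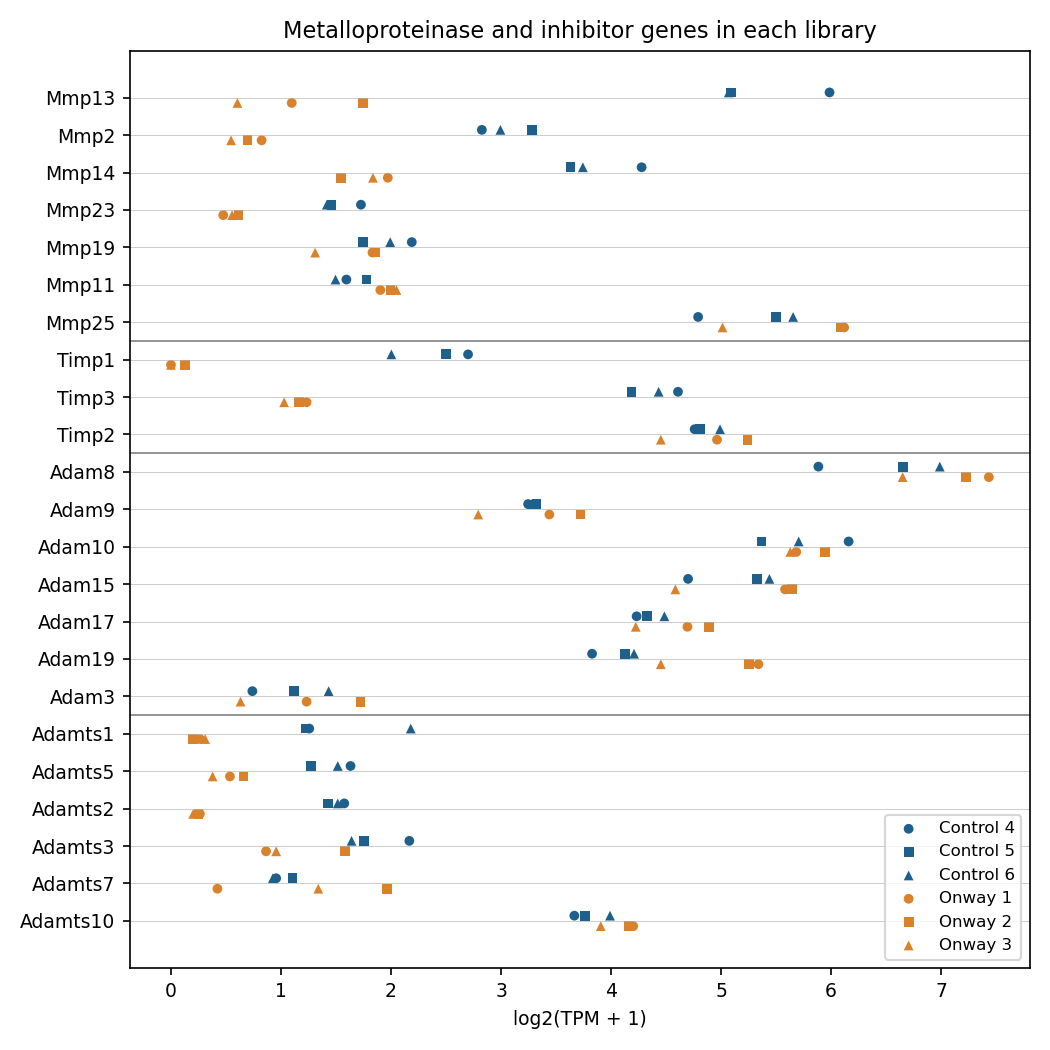
Level of the 23 tested genes in each library as log2(TPM + 1) on the horizontal axis, with Control libraries in blue, Onway libraries in orange and lines between the Mmp, Timp, Adam and Adamts genes. Mmp13, Mmp2, Mmp14, Timp1, Timp3 and Adamts2 show separate clouds of points, while Adam10, Adam15 and Timp2 overlap.

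Mmp13, the main collagenase of mouse bone and cartilage, showed the widest gap of the Mmp genes tested. It was at 62.4, 33 and 32.6 TPM in Control libraries 4, 5 and 6 and at 1.14, 2.36 and 0.52 TPM in Onway libraries 1, 2 and 3. Every Control library was above every Onway library, and Control 4 stood above the other Control libraries. The means were 42.6 ± 17.1 and 1.34 ± 0.936 TPM (SD, n = 3 each, as for all later means), a 31.8-fold difference (log2 fold change −4.23, SE 0.37, limma adjusted p = 0.0014). The gene lies at chr9:7272514-7283331 (GRCm38) and has 1 transcript in the table.

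Mmp2, the gelatinase of mesenchymal cells, was at 6.09, 8.73 and 6.97 TPM in Control libraries 4, 5 and 6 and at 0.77, 0.62 and 0.46 TPM in Onway libraries 1, 2 and 3. Here Control 5 was the highest library, unlike for Mmp13. The means of 7.26 ± 1.34 and 0.617 ± 0.155 TPM differed 11.8-fold (log2 fold change −2.35, SE 0.20, limma adjusted p = 0.0012). Mmp2 was the one Mmp member with a fibronectin type II domain, the collagen-binding insert of gelatinases, in the domain annotation that the authors deposited. The gene lies at chr8:92827291-92853420.

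Mmp14, the membrane-type enzyme that activates the Mmp2 precursor together with Timp2, was at 18.4, 11.4 and 12.4 TPM in Control libraries 4, 5 and 6. In Onway libraries 1, 2 and 3 it was at 2.92, 1.92 and 2.57 TPM. The groups did not overlap, and the Onway libraries lay close together. The gene lies at chr14:54431612-54445364. The means were 14.1 ± 3.77 and 2.47 ± 0.507 TPM, a 5.69-fold difference (log2 fold change −2.10, SE 0.23, limma adjusted p = 0.0027). Most Mmp14 TPM sat in 2 transcripts that were newly assembled for the table, 95% in Control and 88.4% in Onway, and without assembled transcripts the gene did not reach the minimum for testing. One of these, of 3399 bases, held 12.8, 6.81 and 9.53 TPM in the Control libraries and 0.77, 0 and 0.9 TPM in the Onway libraries. The other, of 3425 bases, held 4.38, 3.93 and 2.56 TPM in Control against 1.19, 1.92 and 1.62 TPM in Onway. The larger drop was thus in the shorter of these near-equal transcripts, and how reads divide between such similar models is uncertain.

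Mmp13 heads a cluster of Mmp genes on chromosome 9, and most of its neighbours were close to silent in all libraries. Over 420 kb from the start of Mmp13 lie, in order, Mmp12, Mmp1b, Mmp3, Mmp1a, Mmp10, Mmp8, Mmp27, Mmp20 and Mmp7. Mmp1a, Mmp1b, Mmp20 and Mmp7 were listed at 0 in all 6 libraries. Mmp3 and Mmp10, stromelysins that cut proteoglycans and basement membrane proteins, reached at most 0.1 and 0.07 TPM in any library. Mmp27 was at 0.8 ± 0.121 TPM in Control against 0.783 ± 0.317 TPM in Onway. Mmp12, the macrophage elastase, was at 3.51 TPM in Control 4 but at 0.2 and 0.03 TPM in Control 5 and Control 6, and at 0.16 to 0.44 TPM in Onway. Mmp8, the neutrophil collagenase that is not a member, was at 375 ± 95 TPM in Control against 541 ± 140 TPM in Onway (adjusted p = 0.49). Of the 2 genes of the cluster with high levels, only Mmp13 thus passed the test, and a difference between the changes of Mmp13 and Mmp8 was not tested.

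**Figure D2:**
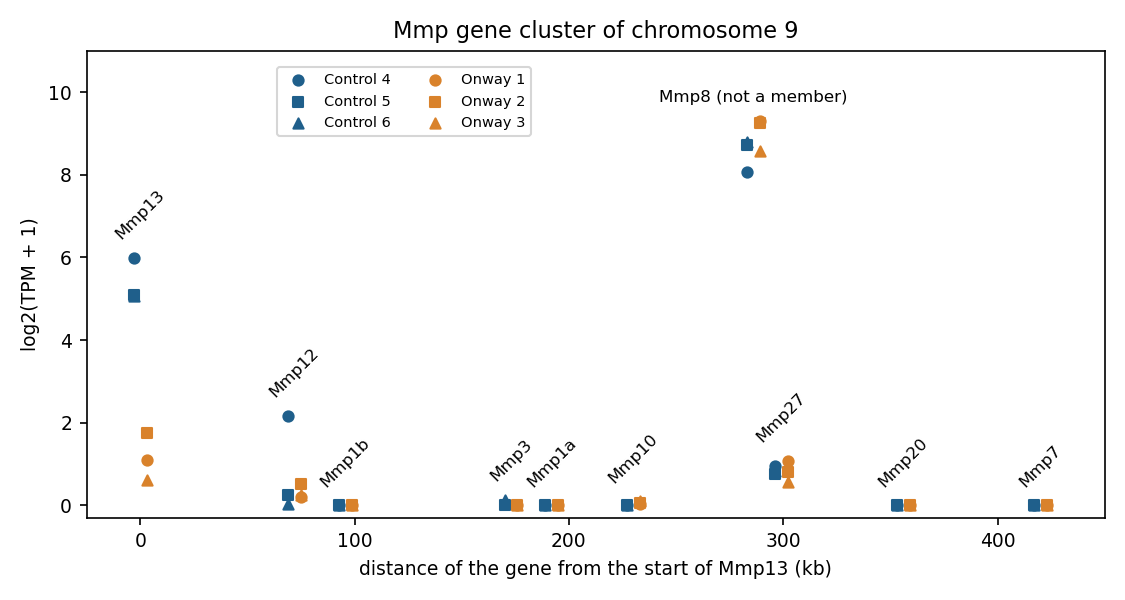
Level of each Mmp gene of the chromosome 9 cluster as log2(TPM + 1) against its distance in kb from the start of Mmp13, 1 point per library, with Control in blue and Onway in orange, and points of the groups set slightly apart. Mmp13 and the non-member Mmp8 stand above the other genes, and Mmp13 separates the groups.

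Several promoters of this cluster hold the same motifs. They are shown because Mmp13, which fell, and several but not all of its near-silent neighbours share these letters. RefSeq promoters (GRCm38.p6, 250 bases before to 50 after the gene start) were found for 49 of the 78 members, 54 promoters in all. The AP-1 motif, the site bound by Fos and Jun factors, was searched as TGAGTCA and as TGACTCA on the other strand, and the TATA box as TATAAA on the gene's strand alone. These motifs do not overlap each other. AP-1 letters stood in 7 of 11 promoters of the cluster Mmp members, in 10 of 54 promoters of all members and in 5.2% of all 32851 promoters. TATA letters stood in 8 of the 11, in 11 of the 54 and in 8.32% of all promoters. The RUNX motif, bound by RUNX factors, was also searched, as TGTGGT and ACCACA. It stood in 4 of the 11, in 12 of the 54 and in 16.8% of all promoters, and is not marked below. The stretches below run 5′ to 3′ from 110 bases before to 10 bases after the RefSeq start, with AP-1 and TATA letters in capitals.
Mmp13, chr9:7272404-7272523, plus strand: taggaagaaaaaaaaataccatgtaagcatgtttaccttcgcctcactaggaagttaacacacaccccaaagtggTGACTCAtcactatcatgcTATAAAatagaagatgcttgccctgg
Mmp12, chr9:7347264-7347383, plus strand: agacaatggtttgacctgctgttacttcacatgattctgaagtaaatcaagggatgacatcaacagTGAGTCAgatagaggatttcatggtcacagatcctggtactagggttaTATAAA
Mmp1b, chr9:7388017-7388136, minus strand: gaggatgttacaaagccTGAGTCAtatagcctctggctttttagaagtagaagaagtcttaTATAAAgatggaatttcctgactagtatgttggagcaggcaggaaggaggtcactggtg
Mmp3, chr9:7445712-7445831, plus strand: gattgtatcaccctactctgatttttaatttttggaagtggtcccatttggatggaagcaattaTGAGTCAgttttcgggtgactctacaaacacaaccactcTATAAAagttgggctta
Mmp1a, chr9:7464031-7464150, plus strand: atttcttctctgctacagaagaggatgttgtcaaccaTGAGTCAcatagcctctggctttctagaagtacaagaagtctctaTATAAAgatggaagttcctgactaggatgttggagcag
Mmp10, chr9:7502232-7502351, plus strand: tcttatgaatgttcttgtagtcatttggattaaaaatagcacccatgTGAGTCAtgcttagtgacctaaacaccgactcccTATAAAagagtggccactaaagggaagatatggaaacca
Mmp7, chr9:7691980-7692099, plus strand: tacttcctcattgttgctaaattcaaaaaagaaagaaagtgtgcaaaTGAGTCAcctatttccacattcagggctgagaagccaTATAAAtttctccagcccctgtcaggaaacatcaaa
In Mmp13 the AP-1 letters begin 35 bases and the TATA letters 16 bases before the start. The AP-1 letters of Mmp10 and Mmp7 both begin 63 bases before it. The Mmp12 stretch belongs to a RefSeq start within the gene, and its TATA letters begin after that start. The other Mmp12 promoter holds neither AP-1 nor TATA letters, and the same is true of another Mmp7 promoter and of Mmp27. Mmp20 holds TATA letters without AP-1 letters. These promoters are not shown. A match describes the letters and says nothing on whether a factor binds there.

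Among the other Mmp genes, Mmp25, a membrane-type enzyme of neutrophils, was the most abundant of the 21 Mmp members in Onway. It was at 26.7, 44.3 and 49.4 TPM in Control libraries 4, 5 and 6 and at 68.5, 67.2 and 31.3 TPM in Onway libraries 1, 2 and 3. The groups overlap, because Onway 3 lay among the Control values (log2 fold change 0.43, SE 0.37, limma adjusted p = 0.7). Its share of the TPM of all 21 Mmp members was 35.9% ± 13 in Control and 80.7% ± 4.94 in Onway, while that of Mmp13 was 36.6% ± 10.8 and 1.85% ± 0.925. The summed TPM of these 21 genes was 114 ± 11.2 in Control and 68.1 ± 22.8 in Onway, given as a description. The sum and shares leave out Mmp8 and Mmp9, which were far more abundant and lay the other way without passing. Their means were 375 and 492 TPM in Control against 541 and 731 TPM in Onway.

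Mmp23, a membrane-anchored enzyme without the hemopexin domain found in 19 of the 21 Mmp members, was at 2.31, 1.75 and 1.67 TPM in Control libraries 4, 5 and 6. It was at 0.39, 0.53 and 0.47 TPM in Onway libraries 1, 2 and 3. The groups did not overlap, but the gene missed the threshold (log2 fold change −0.99, SE 0.22, limma adjusted p = 0.063). Mmp11, stromelysin 3, lay the other way, at 2.02, 2.43 and 1.82 TPM in Control against 2.74, 2.99 and 3.14 TPM in Onway without overlap (adjusted p = 0.47). It shares 155 exon bases with Chchd10 on the opposite strand, which was at 47.9 and 61.2 TPM, and the sources used here do not say whether strand was kept. Mmp19 was at 2.97 ± 0.6 and 2.22 ± 0.638 TPM (adjusted p = 0.65) and shares 789 exon bases with Tmem198b on the opposite strand. The remaining Mmp members outside the cluster, Mmp15, Mmp16, Mmp17, Mmp21, Mmp24 and Mmp28, did not reach the minimum for testing. Of these, Mmp28 had the highest level, with 0.46 to 0.72 TPM in Control against 0.82 to 0.96 TPM in Onway, without overlap. Mmp16, a membrane-type enzyme, lay the other way without overlap, at 0.48, 0.8 and 0.17 TPM against 0.11, 0 and 0.03 TPM.

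Of the inhibitors, Timp3 and Timp1 fell, while the groups overlapped for Timp2. Timp3, which is bound to the matrix and also blocks several ADAM and ADAMTS enzymes, was at 23.4, 17.2 and 20.6 TPM in Control libraries 4, 5 and 6 and at 1.35, 1.24 and 1.04 TPM in Onway libraries 1, 2 and 3. All Control libraries lay far above all Onway libraries. It fell by 3.27 on the log2 scale (SE 0.18, limma adjusted p = 0.00048), from 20.4 ± 3.11 to 1.21 ± 0.157 TPM. Of all members it had the smallest p. Timp3 lies at chr10:86300372-86349506 inside Syn3, which runs on the opposite strand, shares 1733 exon bases with it and was at 0.177 and 0.08 TPM.

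Timp1, a secreted inhibitor that acts on most Mmp enzymes, was at 5.5, 4.67 and 3.01 TPM in Control libraries 4, 5 and 6. It was at 0.09 TPM in Onway 2 and listed at 0 in Onway 1 and Onway 3. It fell by 2.36 on the log2 scale (SE 0.25, limma adjusted p = 0.0023), a value that understates the change because the Onway levels are near 0. Timp1 lies at chrX:20870166-20874735 inside Syn1, on the opposite strand, with 0 shared exon bases. Timp2, the most abundant inhibitor in every library, was at 26.1, 27 and 30.8 TPM in Control against 30.2, 36.8 and 20.9 TPM in Onway. Its groups overlap (log2 fold change 0.03, SE 0.22, adjusted p = 0.97). Timp4 did not pass 0.06 TPM in any library.

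The summed TPM of the Timp genes was 55, 48.9 and 54.4 in Control libraries 4, 5 and 6 and 31.6, 38.1 and 22 in Onway libraries 1, 2 and 3. Timp2 made up 53.1% ± 4.96 of it in Control and 95.8% ± 0.655 in Onway. Timp3 made up 38.5% ± 3.71 and 4.09% ± 0.758. These shares are descriptions of the same values, and no test was made on them. The promoters of the inhibitors that fell are shown in the same window for contrast with the Mmp cluster, and hold no AP-1 letters. The Timp2 promoter also holds none, and 5.2% of all promoters hold them. Capitals mark the GC box, searched as GGGCGG and CCGCCC. It stands in the Timp1, Timp3 and Timp2 promoters, in 35.7% of all promoters and in none of the 11 cluster promoters.
Timp1, chrX:20870056-20870175, plus strand: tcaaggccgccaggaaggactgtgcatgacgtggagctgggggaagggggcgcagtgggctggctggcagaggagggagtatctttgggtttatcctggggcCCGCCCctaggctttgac
Timp3, chr10:86300302-86300421, plus strand: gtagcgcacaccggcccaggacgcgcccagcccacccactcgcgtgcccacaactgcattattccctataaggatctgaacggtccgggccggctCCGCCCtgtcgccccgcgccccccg

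**Figure D3:**
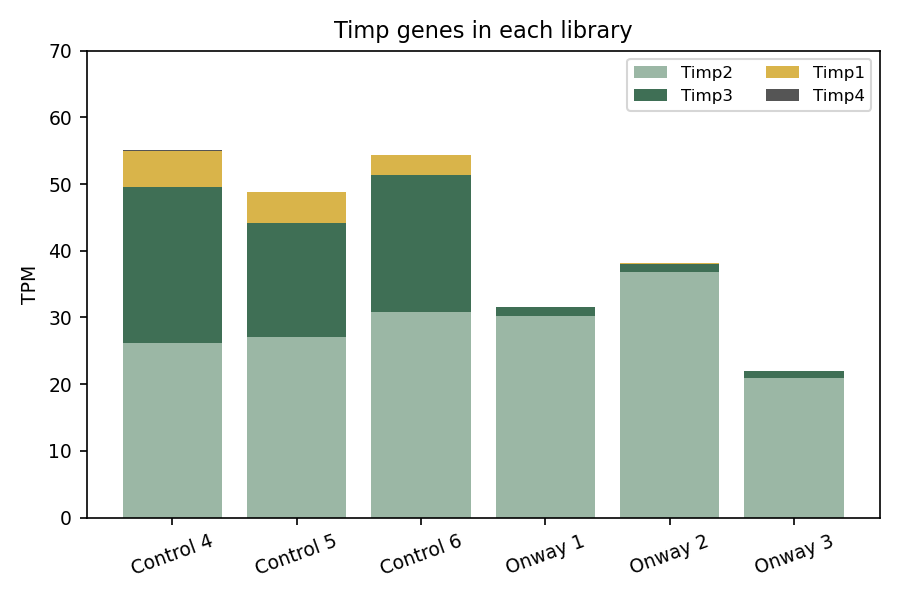
TPM of the Timp genes in each library as stacked bars from 0, with Timp2 at the base and Timp3, Timp1 and Timp4 above it. The Timp3 and Timp1 parts are large in the 3 Control libraries and thin in the 3 Onway libraries, while the Timp2 part runs from 26.1 to 30.8 TPM in Control and overlaps with Onway.

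No ADAM gene passed the test in either direction, and 7 of 34 were tested. Adam8, a protease of neutrophils and other myeloid cells, had the highest mean of all members in both groups, at 58.1, 99.9 and 126 TPM in Control libraries 4, 5 and 6 and at 172, 149 and 99.5 TPM in Onway libraries 1, 2 and 3. Onway 3 lay among the Control values, so the groups overlap (log2 fold change 0.60, SE 0.33, limma adjusted p = 0.51). Within each group the library with the largest haemoglobin share, Control 4 or Onway 3, had the lowest Adam8 and Mmp25 values. These libraries also had the lowest neutrophil marker sums of their groups, with 101559 TPM for Control 4 and 111442 TPM for Onway 3, and the part of these in the levels was not tested. With haemoglobin genes left out and TPM rescaled, Adam8 was at 115 ± 37.6 and 171 ± 24.7 TPM, and it stayed short of the threshold.

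Adam19, which sheds neuregulins and is carried by monocytes and dendritic cells among others, was the one ADAM gene tested without overlap, and lies at chr11:46055992-46147343. It was at 13.2, 16.5 and 17.5 TPM in Control libraries 4, 5 and 6 and at 39.5, 37.1 and 20.9 TPM in Onway libraries 1, 2 and 3. Onway 3 lay just above the Control range and the other Onway libraries well above it. The means of 15.7 ± 2.21 and 32.5 ± 10.1 TPM differed 2.06-fold, which did not pass (log2 fold change 0.96, SE 0.26, limma adjusted p = 0.13). Adjusted p was 0.034 with haemoglobin genes left out, 0.035 with Ensembl transcripts alone, 0.024 when Onway 3 was left out and 0.027 when Control 4 was left out as well, and the range over all alternatives was 0.024 to 0.33. Of its 3 RefSeq promoters, 1 holds AP-1 letters, beginning 131 bases before the start, and this stretch from 140 bases before to 10 after shows them and a GC box in capitals.
Adam19, chr11:46055844-46055993, plus strand: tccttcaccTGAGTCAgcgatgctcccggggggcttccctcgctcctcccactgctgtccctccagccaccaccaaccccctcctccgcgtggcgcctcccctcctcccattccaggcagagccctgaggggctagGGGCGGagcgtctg

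Adam10 and Adam17, the main shedding enzymes of most cells, did not pass. Adam10, which cuts Notch receptors, was at 70.5, 40.3 and 51.2 TPM in Control against 50.4, 60.6 and 48.5 TPM in Onway (log2 fold change 0.01, SE 0.23, limma adjusted p = 0.99). Adam17, which releases tumour necrosis factor, was at 17.8, 19.1 and 21.4 TPM in Control against 24.9, 28.7 and 17.7 TPM in Onway (log2 fold change 0.26, SE 0.21, adjusted p = 0.67). In both genes the groups overlap, and a p above the threshold does not show that the groups are alike. Adam17 shares 311 exon bases with Iah1 on the opposite strand, at 15.2 and 17.1 TPM. An assembled transcript held 47.1% of the Adam17 TPM in Control and 28.3% in Onway. With Ensembl transcripts alone its log2 fold change was 0.69, still short of the threshold (limma adjusted p = 0.2).

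Adam15 was at 35.5 ± 9.27 TPM in Control against 39.7 ± 14.5 TPM in Onway, and Adam9 at 8.73 ± 0.257 and 9.34 ± 3.18 TPM (adjusted p = 0.93 and 0.97). Adam3, a sperm protein gene, rested on 1 assembled transcript of 1199 bases, which held 87.7% of its Control TPM and 72% of its Onway TPM, and without assembled transcripts it did not reach the minimum. Of the ADAM genes under the minimum, Adam12, found in osteoblasts and muscle precursors, was at 1.87, 0.98 and 0.79 TPM in Control against 0.22, 0.22 and 0.19 TPM in Onway. Adam33 was at 0.17 to 1.41 TPM in Control against 0.8 to 1.67 TPM in Onway. Adam28 was listed at 0 in all Onway libraries and reached 0.08 TPM in Control. The ADAM genes listed at 0 throughout number 11, among them Adam7, Adam24 and Adam29, which are known from the male reproductive tract.

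ADAMTS genes were mostly low, and 6 of 19 were tested. Adamts2, which removes the amino-terminal propeptide of fibrillar procollagens, was at 1.98, 1.69 and 1.86 TPM in Control libraries 4, 5 and 6 and at 0.2, 0.19 and 0.15 TPM in Onway libraries 1, 2 and 3. The groups were far apart and tight, with means of 1.84 ± 0.146 and 0.18 ± 0.0265 TPM (log2 fold change −1.27, SE 0.22, limma adjusted p = 0.02). Its coding transcript of 7266 bases held 85.6% of the gene's Control TPM and 30.2% of its Onway TPM, where a transcript annotated as processed held 69.8%. In Onway libraries 1, 2 and 3 the coding transcript was at 0.04, 0.02 and 0.09 TPM, so the Onway shares rest on values near 0. The call was lost when Control 4 (adjusted p = 0.054), Control 6 (0.066), Onway 1 (0.063), Onway 2 (0.065) or Onway 3 (0.067) was left out, and without both Control 4 and Onway 3 (0.11). Adamts2 lies at chr11:50602084-50807573.

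Of the 7 ADAMTS members known to cut aggrecan or versican, 5 were lower in every Onway library than in any Control library. Only Adamts1 and Adamts5 of the 7 were tested, and neither passed the threshold. Such separation was seen in 11.5% of all tested genes and in 10.4% of those under the minimum, where 3 of the 5 lie. Adamts1 and Adamts5 passed the filter through their Control level, so the count of 5 carries no weight of its own. Adamts1 was at 1.39, 1.34 and 3.53 TPM in Control libraries 4, 5 and 6 and at 0.2, 0.15 and 0.24 TPM in Onway (log2 fold change −1.30, SE 0.31, limma adjusted p = 0.085). Adamts5, the main aggrecanase of mouse cartilage, was at 2.1, 1.42 and 1.86 TPM in Control against 0.45, 0.58 and 0.3 TPM in Onway (log2 fold change −0.95, SE 0.23, adjusted p = 0.084). Both lie on chromosome 16, 53.1 kb apart. Adamts9, Adamts4 and Adamts15 of the same class were under the minimum for testing, with Control means of 0.583, 0.27 and 0.0833 TPM and Onway means of 0.0633, 0.02 and 0.01 TPM, again without overlap. Adamts8 and Adamts20 reached at most 0.03 and 0.07 TPM and overlapped.

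Adamts10, a fibrillin-binding member, was the most abundant ADAMTS gene, at 11.7, 12.6 and 14.9 TPM in Control against 17.4, 16.9 and 14 TPM in Onway. Its groups overlap (log2 fold change 0.28, SE 0.17, limma adjusted p = 0.55), and its TPM was spread over 23 transcripts, the leading one a retained intron with 14.8% of the gene in Control. Adamts3, another procollagen protease, was at 2.66 ± 0.73 and 1.25 ± 0.644 TPM (adjusted p = 0.3), and 67.7% of its Control level lay in an assembled transcript of 619 bases. Adamts7 was at 0.997 ± 0.134 and 1.59 ± 1.28 TPM (adjusted p = 0.84) and shares 122 exon bases with Tbc1d2b on the opposite strand. Adamts13, which cuts von Willebrand factor, was at 0.39, 0.06 and 0.13 TPM in Control against 0.01, 0.03 and 0.1 TPM in Onway, with overlap. Adamts18 was at 0.1 to 0.55 TPM in Control and listed at 0 in all Onway libraries.

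Log2 fold changes of genes with low levels are understated on the log2(TPM + 1) scale, so their order is not an order of size. With a pseudocount of 0.1 TPM, Timp1 was at −5.14, Mmp13 at −5.04, Timp3 at −3.96, Mmp2 at −3.37, Adamts2 at −2.80 and Mmp14 at −2.45, all still called. Adamts1, Adamts5 and Mmp23 were then at −2.75, −1.82 and −1.83, still short of the threshold.

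**Figure D4:**
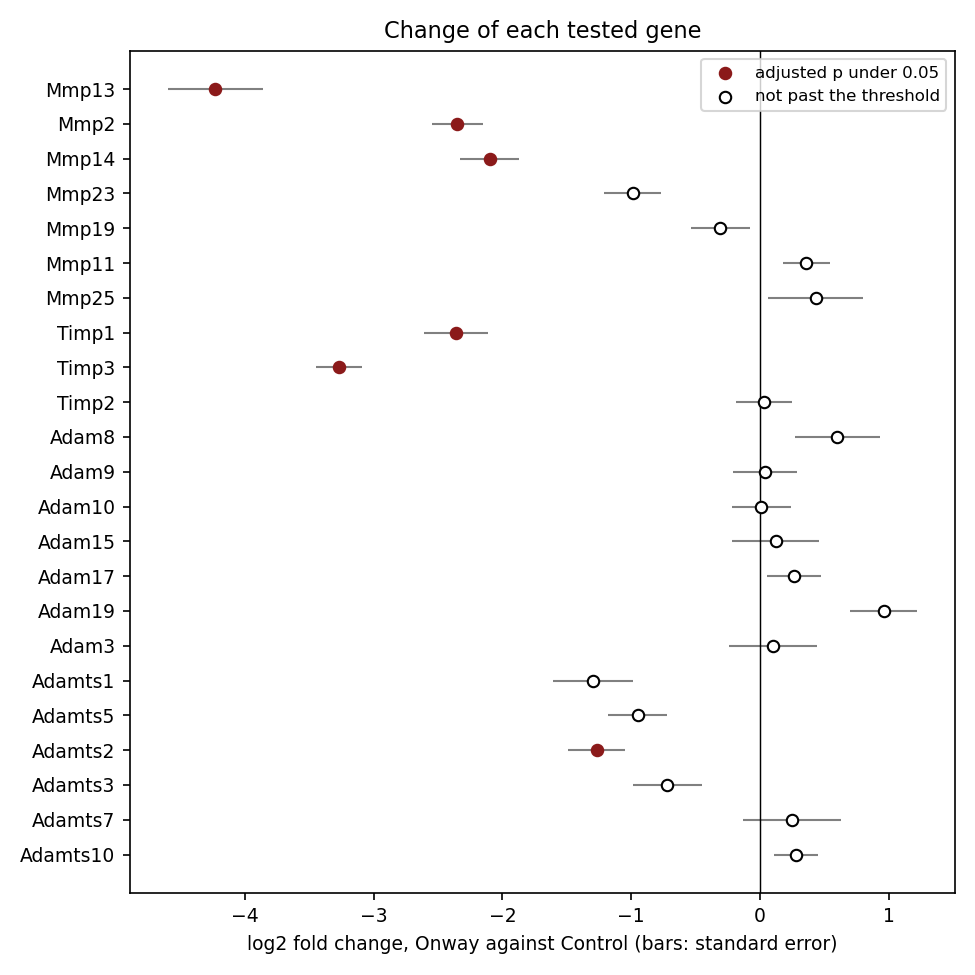
Log2 fold change of Onway against Control for the 23 tested genes, with bars of 1 standard error and filled points for genes past the threshold. The 6 filled points run from −4.23 for Mmp13 to −1.27 for Adamts2, and Adam19 at 0.96 is the highest open point, in an order that depends on the pseudocount of 1 TPM.

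Group means that the authors deposited beside the libraries contain a further value per group. For every one of 158850 transcripts, 4 times the deposited mean covered the 3 libraries of that group to within 0.011 TPM, and the remainder summed to 1000000 TPM in each group. That total would follow for any mean of libraries that each sum to 1000000 TPM, so it carries no weight of its own. The remainder may be a library not analysed here, which was not tested. Which sample it would come from is not stated in the labels. It is given as the authors' value, with no error, and entered no test. For Mmp13 it was 1.97 TPM in Control against 2.28 TPM in Onway, so the Control remainder lay far under the 3 Control libraries. Mmp2 left 0.68 and 0.86 TPM, Timp1 0 and 0.14 TPM, and Adamts2 0.3 and 0.35 TPM. For these 4 genes the remainder thus did not show the difference seen between the libraries.

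Other members left values between or apart from the groups. Timp3 left 8.76 TPM in Control against 7.61 TPM in Onway, both between the groups of libraries, and Mmp14 left 5.83 and 3.15 TPM, both above its Onway libraries and under its Control libraries. Adam19 left 11.9 TPM in Control against 28.3 TPM in Onway, the same direction as in the libraries, as did Adam8 with 109 and 135 TPM and Mmp25 with 34.7 and 52.7 TPM.

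**Figure D5:**
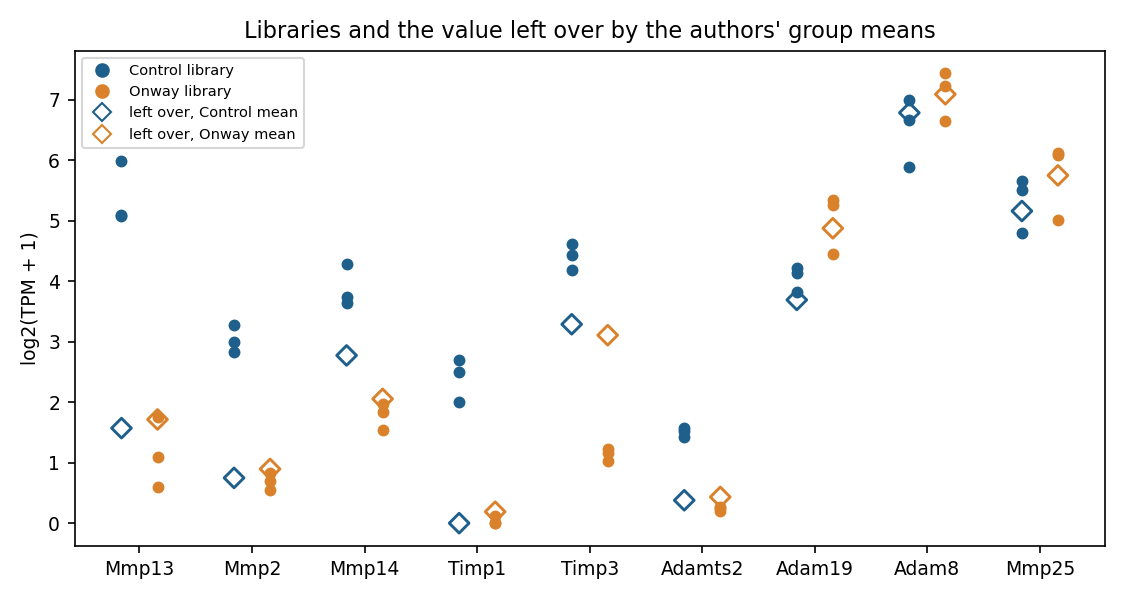
Levels as log2(TPM + 1) of 9 genes in the Control libraries (blue points) and Onway libraries (orange points), with open diamonds for the value that the authors' mean of each group leaves beyond its 3 libraries. For Mmp13, Mmp2, Timp1 and Adamts2 the blue diamond sits beside the orange points, while for Adam19 the diamonds lie apart like the points.

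Other genes of the protease system were read from lists of activators, partners and substrates. The calls in these lists stand beside 2.99% of all tested genes called lower and 0.233% called higher. Of 11 tested genes that activate, inhibit or clear these enzymes, 3 fell and 0 rose. They were Serpine2, an inhibitor of plasminogen activators and thrombin, at 100, 79.6 and 85.6 TPM in Control against 9.82, 8.82 and 5.9 TPM in Onway (limma adjusted p = 0.00048), Bmp1, which removes the carboxy-terminal procollagen propeptide (5.46 ± 1.73 against 0.817 ± 0.0252 TPM, adjusted p = 0.0072), and Htra1 (3.46 ± 1.56 against 0.353 ± 0.145 TPM, adjusted p = 0.023). The median log2 fold change of this list was −0.09. Furin, which cuts the propeptides of membrane-type and ADAM enzymes, was at 21.1 ± 3.15 and 30.4 ± 7.92 TPM, and Reck, a membrane-anchored inhibitor, at 9.06 ± 3.64 and 9.68 ± 3.9 TPM (adjusted p = 0.44 and 0.96).

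Of 10 tested partners of ADAM proteases none passed, with a median of −0.36 (limma). Rhbdf1, an iRhom that carries Adam17 to the surface, was at 2.21 ± 0.265 and 0.657 ± 0.222 TPM (adjusted p = 0.07), and its relative Rhbdf2, the form of immune cells, at 21.9 ± 2.82 and 27.8 ± 7.75 TPM (adjusted p = 0.66). At an unadjusted p under 0.05, 3 of the 10, Rhbdf1, Sh3pxd2a and Tspan17, were lower, against 8.42% of all tested genes. Neither tested ADAMTS-like gene passed, with Adamtsl5 at 2.55 ± 0.943 and 0.703 ± 0.382 TPM (adjusted p = 0.13) and lower at an unadjusted p under 0.05. Among 16 tested proteins known to be shed, Gp6 and Gp1ba, collagen and von Willebrand factor receptors of platelets, and Kitl fell and none rose, with a median of 0.33. Gp1ba also stands in the megakaryocyte and platelet marker list and Kitl in the stromal one, so these lists are not separate. Gp6 was at 11.8 ± 1.8 and 0.607 ± 0.349 TPM (limma adjusted p = 0.00077) and Kitl at 3.57 ± 0.965 and 0.513 ± 0.107 TPM (adjusted p = 0.012). Tnf, the shed cytokine, was at 3.34 ± 1.29 and 7.27 ± 2.6 TPM (adjusted p = 0.25). At an unadjusted p under 0.05, 4 of the 16 were lower and 2, Fcer2a and Tnf, were higher. Of all tested genes, 8.42% were lower and 4.95% higher in this way.

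Of 10 tested matrix substrates 7 fell and 0 rose, where 2.99% of all tested genes were called lower and 0.233% higher. The median log2 fold change of this list was −1.49. Some of these substrates, such as Col2a1, also stand in the cell type marker lists. Vwf, the substrate of Adamts13, was at 53.5 ± 2.66 TPM in Control against 5.2 ± 2.21 TPM in Onway (limma adjusted p = 0.0008). Col2a1, the cartilage collagen cut by Mmp13, was at 12.8 ± 3.8 and 0.277 ± 0.25 TPM (adjusted p = 0.00088). Fn1, fibronectin, lay the other way at 64.5 ± 11.4 and 144 ± 51.4 TPM without passing (adjusted p = 0.15). Vcan, the proteoglycan versican, was at 0.877 ± 0.236 and 2.56 ± 1.5 TPM (adjusted p = 0.34).

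Markers of bone, stroma, vessels, muscle and megakaryocytes were lower in Onway, as were the members that fell. Within Control their order differed. Mmp13 was highest in Control 4, the osteoblast and osteocyte sum in Control 5 and the skeletal muscle sum in Control 6. The counts that follow stand beside the 2.99% of all tested genes that were called lower. Osteoblast and osteocyte markers fell in 9 of 10 tested genes and summed to 297 to 1481 TPM in Control against 9.03 to 25.1 TPM in Onway, with Mepe at 0 in Onway. Osteoclast markers fell in 3 of 4 and summed to 280 to 567 TPM and 63.6 to 72.8 TPM, with Calcr at 0 in Onway. Nfatc1 did not fall, at 16.8 ± 0.602 TPM in Control against 22.7 ± 4.35 TPM in Onway (limma adjusted p = 0.41). Chondrocyte markers fell in the 1 tested gene, Col2a1, summed to 9.34 to 15.9 TPM and 0.22 to 0.93 TPM, and had Acan and Col10a1 at 0 in Onway.

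Stromal markers fell in 10 of 10 (263 to 456 TPM against 27.5 to 44.8 TPM), endothelial markers in 9 of 10 (74.1 to 86.8 TPM against 29.9 to 36.1 TPM) and skeletal muscle markers in 11 of 12 (752 to 4837 TPM against 16.7 to 25.3 TPM). Megakaryocyte and platelet markers fell in 13 of 13 (2168 to 2446 TPM against 115 to 185 TPM). Adipocyte markers summed to 41 to 80 TPM against 7.7 to 23.1 TPM with Cidec at 0 in Onway, and neither of the 2 tested was called, both being lower at an unadjusted p under 0.05. Their part in the lower Mmp13, Mmp2, Mmp14, Timp1, Timp3 and Adamts2 levels was not tested.

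Markers of the other blood lineages did not pass in either direction. None of 14 neutrophil, 10 macrophage, 8 erythroid, 7 B cell, 6 T and NK cell or 5 eosinophil, basophil and mast cell genes was called by limma. At an unadjusted p under 0.05, 8 macrophage, 1 neutrophil and 1 T and NK cell gene were lower, 3 B cell and 3 T and NK cell genes were higher, and 0 erythroid or eosinophil, basophil and mast cell genes passed, where 8.42% of all tested genes were lower and 4.95% higher. Beside Adam8 and Mmp25, the neutrophil sum was 101559 to 218951 TPM in Control against 111442 to 198527 TPM in Onway (median log2 fold change of the list 0.20). Its members lay on both sides, with Mmp9, the granule gelatinase left out of the members here, at means of 492 and 731 TPM, and the early granule genes Elane at 1570 and 836 TPM, Prtn3 at 1790 and 912 TPM and Mpo at 1850 and 1180 TPM. Macrophage markers summed to 191 to 322 TPM in Control against 105 to 151 TPM in Onway. Epithelial markers summed to 4.8 to 7.81 TPM in Control against 3.8 to 7.01 TPM in Onway, and neither of the 2 tested passed, also at an unadjusted p under 0.05.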

How the data were processed

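Per the labels' protocols, total RNA was purified by RNeasy and sequenced from SMARTer mRNA libraries. The submitters' processing notes name GRCm38 and mm10. Neither aligner nor quantifier is given in these sources. TPM values were deposited by the authors for 158850 transcripts, 16416 of them newly assembled, and each library sums to about 1000000 TPM. The numbered Onway columns carry another prefix than the titles and were matched by number. Transcript TPM were summed to 56496 genes, and the 14192 genes whose mean reached 1 TPM were fitted with limma 3.58.1 (R 4.3.3) on log2(TPM + 1), with a mean-variance trend and robust moderation and no covariate, with two-sided tests. The fit was tested on simulated data. Alternatives were another pseudocount, other filters, haemoglobin genes left out, quantile normalization, Ensembl transcripts alone, plain limma moderation and leaving out libraries. Standard errors are limma's moderated values.

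Members and lists were chosen with earlier results of these data known. Named are all members past the threshold, those with at least 5 TPM in a group and a panel of 12, with others by range. Of each pathway list those with the smallest p are named. Further genes were named after their values were seen. Coordinates are from GENCODE M21, which held all 78 members. Protein sequences were not analysed here.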

Additional observations from a re-analysis of the deposited data

Results flagged for a closer look

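The value that 4 times the authors' Onway mean leaves beyond the 3 Onway libraries lies outside the comparison, and for 6 members with at least 1 TPM there it was above the highest Control library. It was 135 TPM for Adam8 (highest Control library 126 TPM), 52.7 TPM for Mmp25 (49.4 TPM), 28.3 TPM for Adam19 (17.5 TPM), 22.6 TPM for Adam17 (21.4 TPM), 18.7 TPM for Adamts10 (14.9 TPM) and 1.09 TPM for Adam11 (0.91 TPM). The Onway libraries themselves had Adam11 at 0.61 to 0.69 TPM, under every Control library. No member called lower in Onway was among these 6. The share of all genes with such a remainder above every Control library was not computed, so the count of 6 carries no weight of its own.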

How the results depend on the processing

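Of the 6 lower members, Mmp13, Mmp2, Mmp14, Timp1 and Timp3 kept their call in every alternative that tested them; Adamts2 lost it in 6 of 13. A minimum mean of 5 TPM left 12 members tested and 3 called lower, since Mmp2, Timp1 and Adamts2 were no longer tested. The count of higher members was 1, Adam19, with haemoglobin genes left out, with Ensembl transcripts alone, without both Control 4 and Onway 3, and without Onway 3, and leaving out single libraries gave 0 to 1. Mmp23 passed without a filter and with Ensembl transcripts alone (adjusted p = 0.045 each) and with limma without trend or robust moderation (0.022), as did Adamts5 in the last (0.034). Over all genes the lower and higher calls were 424 and 33, and they were 183 and 20 at a minimum of 5 TPM, 418 and 56 with quantile normalization, 249 and 17 when Onway 2 was left out, 254 and 72 for Onway 3, 285 and 72 for Onway 1, 334 and 87 for Control 4, and 213 and 98 for Control 4 together with Onway 3.

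Signs changed among genes that never passed. With quantile normalization the log2 fold change was −0.03 for Adam10 and −0.02 for Timp2. Leaving out single libraries gave ranges of −0.18 to 0.22 for Adam10, −0.11 to 0.46 for Adam15, −0.16 to 0.38 for Adam3, −0.17 to 0.30 for Adam9, −0.11 to 0.66 for Adamts7 and −0.14 to 0.25 for Timp2. The cause was not tested. No paired analysis was possible because the groups share no replicate numbers. TPM keep no depth, so no detection limit is given for members listed at 0.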
